A study of Mus musculus with 30 samples.

Results

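The chromatin response of wild-type natural killer (NK) cells to stimulation through NK1.1 was examined with prostaglandin E2 (PGE2) given to both groups. The comparison sets 4 stimulated libraries (replicates 1 to 4) against 3 resting libraries (replicates 2 to 4), 7 of the 30 libraries of the series, at every deposited peak. NK cells isolated from mouse spleens had spent 5 days in culture with IL-2 and IL15:IL15Ra. Resting cells then had 5 h of PGE2 at 100 ng/ml, and stimulated cells had 1 h of PGE2 followed by 4 h of stimulation with an antibody to NK1.1, and no wash between them is mentioned in the labels. Both groups are C57BL/6J mice without an engineered allele. ATAC-seq, which uses a transposase to cut and tag open DNA, gave the accessibility of each site, and each peak is an open region whose value is a normalised read count. The same stimulation was read, for comparison, in wild-type cells without PGE2 (4 stimulated and 4 resting libraries) and in cells from GzmbCre Ptger2-/- Ptger4 fl/fl mice given PGE2 (4 and 4, here the knockout). In the knockout the PGE2 receptor EP2 is absent in all cells and EP4 is deleted where granzyme B-driven Cre is active, so the cells that never made Cre keep EP4, and the wild-type cells carry no Cre. The ages of the mice are not given in the sources used here.

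NK1.1 is an activating receptor that signals through adaptors with tyrosine-based (ITAM) motifs, Syk and ZAP70 kinases and calcium, and so switches on the factors NFAT, NF-κB and AP-1. These open enhancers and promoters of cytokine, chemokine and co-stimulatory genes within hours. PGE2 binds the receptors EP2 and EP4, which raise cyclic AMP and activate protein kinase A, and it is known as a brake on NK cell killing and cytokine release. Accessibility near a gene is not its expression, and in bulk libraries a change in the share of cells and a change per cell cannot be told apart.

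Sequence was read at promoters, where AP-1 letters were more frequent in the peaks that opened with PGE2 than in promoter peaks at large. The AP-1 site was searched as TGANTCA on both strands in the 250 bases before each gene's start (RefSeq, GRCm38.p6). Except for the count over all promoters, only promoter peaks that hold a whole window were used, with a single window kept per peak. These were 242 of 480 opened and 8482 of 12048 tested promoter peaks. The site was found for 36 of the 242 opened ones, or 14.9%. It was found for 3.83% of 8482 genes with a tested promoter peak, 6.75% of all 32851 promoters in the table, 6.22% of 1544 genes whose promoter peak opened without PGE2 and 1.14% of 437 genes whose promoter peak closed with PGE2. The opened sets overlap: 94.5% of all peaks opened with PGE2 also opened without it, where 2352 promoter peaks opened against 480. Whether shares of these 2 sets differ through PGE2 or through the size of the change was not tested. The match is a description of letters and not a measured site. The opened promoters also held fewer CpG dinucleotides (13.7 per window, against 18.0 for tested promoter peaks and 20.6 for closed ones), and GC made up 58.5% against 61.4% of tested windows. The cyclic AMP response element TGACGTCA, searched in the same way, was found in 2 of the 242 opened promoters, or 0.826%, against 2.97% of tested ones and 4.28% of those opened without PGE2. Its shorter form TGACG was found in 27.3% of opened promoters, close to the 28.7% of tested and 27.9% of closed ones. Of those opened without PGE2 35.2% held it. The NFAT core GGAAAA was found in 18.2% against 17.2% of tested promoters, and the NF-κB consensus in 7.85% against 4.70%. The 8 genes below had the smallest p among the 36, with a chromosome left out of the ranking. The choice was made after their values were seen, and none lost its call under an alternative that tested it. Each line gives 30 bases of the gene's strand, 5′ to 3′, with the TGANTCA match in capitals, and all come from mouse promoters of build GRCm38.p6.
Bcl2a1d (chr9:88731946-88731975, minus strand): gacttttaaacTGAATCAgaagaggaagtg
Bcl2a1b (chr9:89199098-89199127, plus strand): gacttttaaacTGAATCAgaagaggaagag
Dnmt3aos (chr12:3862425-3862454, minus strand): tggatgctctaTGACTCAcacccactgtgg
Slc7a1 (chr5:148400009-148400038, minus strand): gccatcagctcTGACTCAagctcagttgcg
Bcat1 (chr6:145076163-145076192, minus strand): gaggtagcaaaTGAATCAaagacgctttca
Tnfsf14 (chr17:57194323-57194352, minus strand): tccatcccaccTGAGTCAcattttctggaa
Ypel4 (chr2:84734039-84734068, plus strand): ggggggttggaTGACTCAcagtgttatgat
Gm5122 (chr9:61016826-61016855, plus strand): gcctgggaaccTGACTCAtgtggacacagc

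The Dnmt3aos promoter peak, which lies against the DNA methyltransferase gene Dnmt3a, read 218.7, 271.1, 220.1 and 171.1 in the stimulated libraries and 89.76, 72.2 and 93.06 at rest, a log2 change of 1.35 ± 0.20 (limma, adjusted p = 4.037e-06). Bcat1, a branched-chain amino acid transaminase, read 241.6, 239.8, 222.2 and 246.8 against 135.7, 105.1 and 143.6 (0.90 ± 0.15, limma adjusted p = 1.884e-05). In both, every stimulated library lay above every resting one. The promoter peaks of the survival genes Bcl2a1d and Bcl2a1b rose by 0.62 and 0.61, that of the arginine transporter gene Slc7a1 by 0.52, and that of Tnfsf14, which encodes the ligand LIGHT, by 0.52. The peak that holds the Bcl2a1b window carries the gene name Gm29094 in the authors' annotation. The Bcl2a1 copies are close in sequence, so reads may be split between them and their single values are uncertain.

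The whole upstream windows of Ccl3, Il2ra and Klrb1c are shown because the promoter peaks they belong to carry results below. The chemokine gene Ccl3 (chr11:83649379-83649628, minus strand) has GGAAAA on the other strand, printed as TTTTCC in capitals, 60 to 55 bases before the start. Il2ra (chr2:11642542-11642791, plus strand), which encodes the IL-2 receptor alpha chain, has NF-κB consensus matches, in capitals, 201 to 191 bases before the start. Klrb1c (chr6:128788642-128788891, minus strand), which encodes NK1.1 itself, holds none of the searched letters.
Ccl3: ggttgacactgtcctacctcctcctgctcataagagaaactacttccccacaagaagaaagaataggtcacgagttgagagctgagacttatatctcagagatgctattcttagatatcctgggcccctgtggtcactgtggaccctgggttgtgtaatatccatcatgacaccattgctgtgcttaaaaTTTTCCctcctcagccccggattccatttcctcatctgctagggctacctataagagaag
Il2ra: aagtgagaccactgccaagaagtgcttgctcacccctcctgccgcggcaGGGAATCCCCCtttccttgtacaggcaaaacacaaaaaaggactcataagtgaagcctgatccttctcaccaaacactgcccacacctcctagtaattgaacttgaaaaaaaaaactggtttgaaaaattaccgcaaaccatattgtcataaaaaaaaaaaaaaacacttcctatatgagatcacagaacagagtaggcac
Klrb1c: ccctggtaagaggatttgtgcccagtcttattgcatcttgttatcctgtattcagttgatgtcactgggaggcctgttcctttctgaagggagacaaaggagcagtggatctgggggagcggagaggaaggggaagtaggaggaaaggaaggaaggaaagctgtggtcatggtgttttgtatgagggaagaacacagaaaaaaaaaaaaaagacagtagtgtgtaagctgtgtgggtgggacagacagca

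The 7 libraries held 12689832 to 16077697 reads in peaks, against 8444350 to 20153816 over all 30. Every marker gene of NK cells on the list used here had a peak, and at rest with PGE2 the promoter peaks of Ncr1, Nkg7 and Eomes read 1281, 1369 and 1539. The table used here holds no peak for the B cell genes Cd79a, Cd79b and Ms4a1, the T cell genes Cd3g, Cd4, Cd8a, Cd8b1, Trac and Themis, or the myeloid genes Lyz2, Mpo, S100a8 and S100a9. Other markers of these cells did have peaks, some as high as those of NK cell genes: at rest with PGE2 Cd3d, of the T cell list, read 1528.7, and the highest peaks of Itgax and Cebpe, of the myeloid list, 621.3 and 494.3. Their summed level was 1263 to 1398 in stimulated and 1184 to 1259 in resting libraries for B cells (2 of 10 peaks called higher), 2214 to 2548 and 2069 to 2210 for T cells (2 of 6), and 3069 to 3586 and 2779 to 3121 for myeloid cells (4 of 11). The called members lie near Blk, Cd22, Cd6 (2 peaks), Adgre1, Cd68 and Csf1r (2 peaks), and the Cd22 and Cd68 calls were lost without stimulated replicate 1, among other settings. Their part in the results below was not tested. Whether replicates are separate mice or cultures is not in the labels, so the p-values here measure spread that may be technical.

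NK1.1 stimulation still opened chromatin with PGE2 present, with the largest named rises near Xcl1, Rgs1, Cwc27 and Crtam. The stimulation closed far fewer sites than it opened, by smaller amounts. Of 38525 tested peaks 6339 were called (limma, adjusted p under 0.05; 16.5%): 4874 higher (12.7%) and 1465 lower (3.8%). The called rises had a median log2 change of 0.80 and reached 3.99, with 1747 above 1 and 242 above 2. The called falls had a median of -0.40 and reached -1.47, with 22 below -1. Rises lay near 2857 genes and falls near 1267. The 4 stimulated and 3 resting libraries did not overlap at 10705 peaks (27.8%), 6721 of them higher (17.4%) and 3984 lower (10.3%). The count of falls rests on single libraries: it was 703 without resting replicate 3 and 936 without resting replicate 4, while rises stayed between 3890 and 4653. With each library centred on its median, which moves the median change of all peaks from -0.02 to -0.09, there were 4101 rises and 2614 falls, so rises made up 61.1% in place of 76.9% of calls.

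Without PGE2 the same stimulation moved more peaks, nearly as many down as up. There 21692 peaks were called (56.3%), 11120 higher (28.9%) and 10572 lower (27.4%), and with 4 against 3 libraries, as here, between 20481 and 20572. The stimulation effect differed with PGE2 at 9757 peaks (25.3%, limma, interaction of PGE2 with stimulation). The signed log2 difference, with PGE2 minus without, was negative at 5669 (14.7%) and positive at 4088 (10.6%). Of the negative differences 5555 were at peaks that opened without PGE2, and of the positive ones 3953 at peaks that closed without it. A positive difference was thus mostly a fall that was smaller or absent with PGE2, not a larger rise. The comparisons with and without PGE2 share no library, only the estimate of spread. Of the 4874 peaks that opened with PGE2, 4605 (94.5%) also opened without it, 244 were not called and 25 closed. Without stimulated replicate 1 the latter 2 counts were 123 and 12, and without resting replicate 3 they were 110 and 15, while the share opened in both stayed between 94.3% and 96.8%. Without resting replicate 4 the 244 were 160 and the 25 were 15, and without stimulated replicate 3 the 25 were 16. Of the 1465 that closed, 1145 (78.2%) also closed without it, 318 were not called and 2 opened. These counts rest on single libraries: the 1145 were 627 without resting replicate 4 and 648 without resting replicate 3, and the 318 were 147 without stimulated replicate 1 and 55 without resting replicate 3. The share closed in both ran from 65.1% without resting replicate 2 to 92.2% without resting replicate 3. Read the other way, 41.4% of the peaks opened without PGE2 and 10.8% of those closed without it were called in the same direction with PGE2. The plot of peak changes places most opened sites below the line of equal change.

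**Figure D1:**
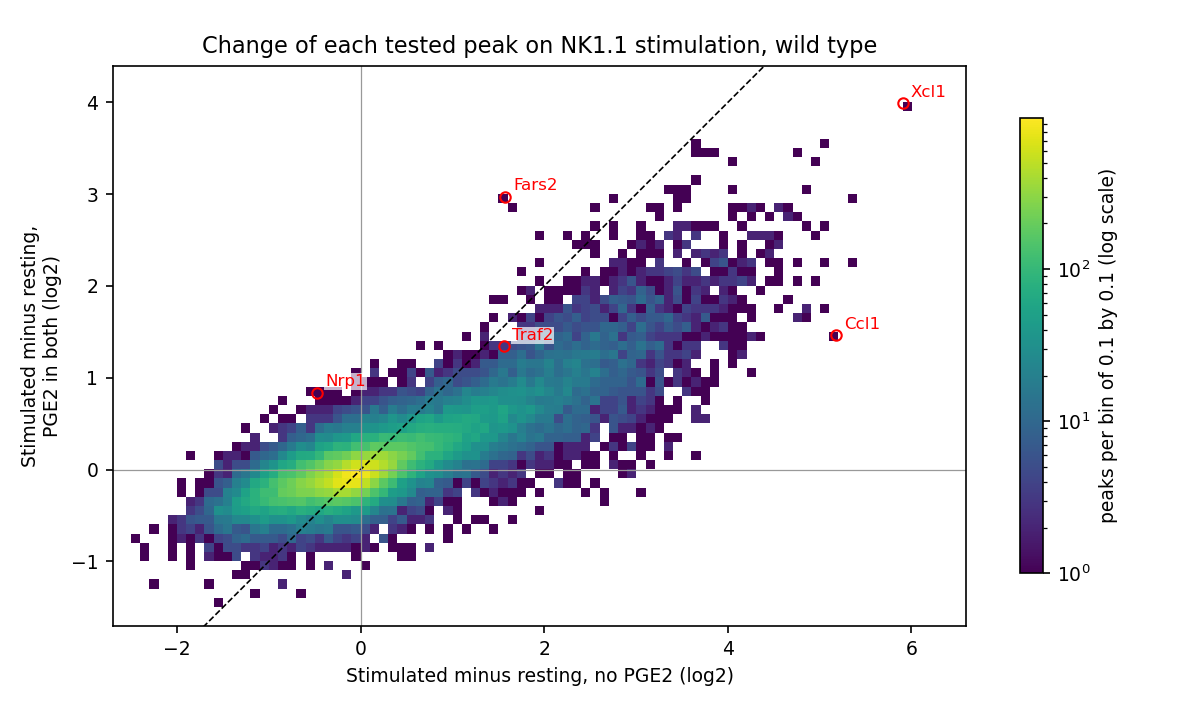
Log2 change of every tested peak on NK1.1 stimulation in wild-type cells, without PGE2 (horizontal) and with PGE2 in both groups (vertical); colour gives the number of peaks per bin on a log scale, the dashed line marks equal change and circles mark peaks named in the text. The cloud is flatter than the dashed line, with Xcl1 at 5.90 and 3.99, Ccl1 at 5.18 and 1.46, and Fars2 and Nrp1 above the line.

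The chemokines and cytokines that NK cells release on activation held the largest share of risen peaks among the lists. Of 91 peaks near 21 such genes, 43 rose (47.3%) and 2 fell (2.2%) with PGE2 (median change 0.40, against -0.02 over all tested peaks). Without PGE2 70 rose and 3 fell (median 1.18). Over all tested peaks 12.7% rose and 3.8% fell with PGE2, and 28.9% and 27.4% without it, the shares to set beside each list below. Xcl1 encodes a chemokine that draws cross-presenting dendritic cells, and its exon peak (chr1:164928927-164932073) read 661.1, 739.6, 419.8 and 410.3 in the stimulated libraries and 29.22, 42.95 and 28.36 at rest. All stimulated libraries lay far above rest, with replicates 1 and 2 above 3 and 4, and the log2 change was 3.99 ± 0.31 (limma, adjusted p = 2.493e-12). Without PGE2 the means were 2619.9 ± 766.0 (SD, n = 4) and 42.96, a change of 5.90, and the difference was -1.91 ± 0.42 (interaction, limma adjusted p = 0.0007226). At Xcl1 9 of 12 peaks rose with PGE2 and 11 rose without it.

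Ccl3 and Ccl4 encode inflammatory CC chemokines. The Ccl3 promoter peak (chr11:83646107-83649993), whose upstream letters are printed above, read 1375.9, 1519.4, 1257.5 and 1313.3 with stimulation and 610.6, 526.4 and 533.5 at rest. The groups stood apart, and the log2 change was 1.29 ± 0.13 (limma, adjusted p = 2.096e-09). The stimulated level with PGE2, 1366.5 ± 112.8 (SD, n = 4), was close to the resting level without it, 1227.3 ± 106.4 (SD, n = 4), while stimulation without PGE2 gave 4172.7 ± 506.2 (SD, n = 4). The log2 change of 1.76 without PGE2 did not pass as different (interaction -0.47, adjusted p = 0.05405, limma). The resting level was lower with PGE2, at 556.8 ± 46.67 (SD, n = 3). All 5 Ccl3 peaks rose, and at 1 of them the effect was called smaller with PGE2. The call of 1 intergenic Ccl3 peak was lost with centred libraries, without stimulated replicate 1, 2 or 3 and without resting replicate 2 or 3. The Ccl4 exon peak (chr11:83663325-83667399) read 1357.0, 1289.6, 828.5 and 888.0 against 187.9, 165.4 and 189.7, with no overlap and again replicates 1 and 2 highest. It rose by 2.55 ± 0.18 (limma, adjusted p = 4.141e-13), and the difference from the change without PGE2 was -1.095 (interaction adjusted p = 0.001077, limma). All 3 Ccl4 peaks rose, 1 of which was not called without resting replicate 3. Ccl3 and Ccl4 are close copies in sequence, so reads could be shared between them where they match.

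Ccl1, the ligand of CCR8, lost the most of its response among these chemokine genes. Its exon peak (chr11:82173321-82177520) read 253.5, 254.3, 148.8 and 180.4 against 76.19, 72.2 and 71.79, a log2 change of 1.46 ± 0.24 (limma, adjusted p = 1.366e-05). Without PGE2 it reached 2905.4 ± 1075.2 (SD, n = 4) from 77.36, a change of 5.18. The difference of -3.72 ± 0.32 (interaction, limma adjusted p = 3.12e-10) was the most negative of all tested peaks.

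The interferon gamma gene Ifng opened modestly at its promoter and more at distal sites. The promoter peak (chr10:118440476-118441519) read 434.4, 448.4, 408.6 and 459.9 with stimulation and 317.3, 326.3 and 336.8 at rest, with no overlap. Its log2 change was 0.42 ± 0.10 (limma, adjusted p = 0.002603), against 1.06 without PGE2, a difference of -0.64 (interaction adjusted p = 0.0006464, limma). An intergenic Ifng peak rose from 14.72 to 73.8 (2.23) and an intronic one from 33.48 to 100.5 (1.55). In all 6 of 18 Ifng peaks rose and none fell with PGE2, and 12 rose and 2 fell without it. The promoter peak of Csf2, which encodes the growth factor GM-CSF, rose by 0.63 ± 0.11 from 291.1 to 450.9 (limma, adjusted p = 3.964e-05). The other of the 2 Csf2 peaks, an intergenic one, fell (-0.60), a call that was lost without resting replicate 4. Of the 7 Ccl5 peaks 1 rose, its promoter, and of 2 Tnf peaks 1 rose, and the Ccl5 call was lost without stimulated replicate 1, among others.

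**Figure D2:**
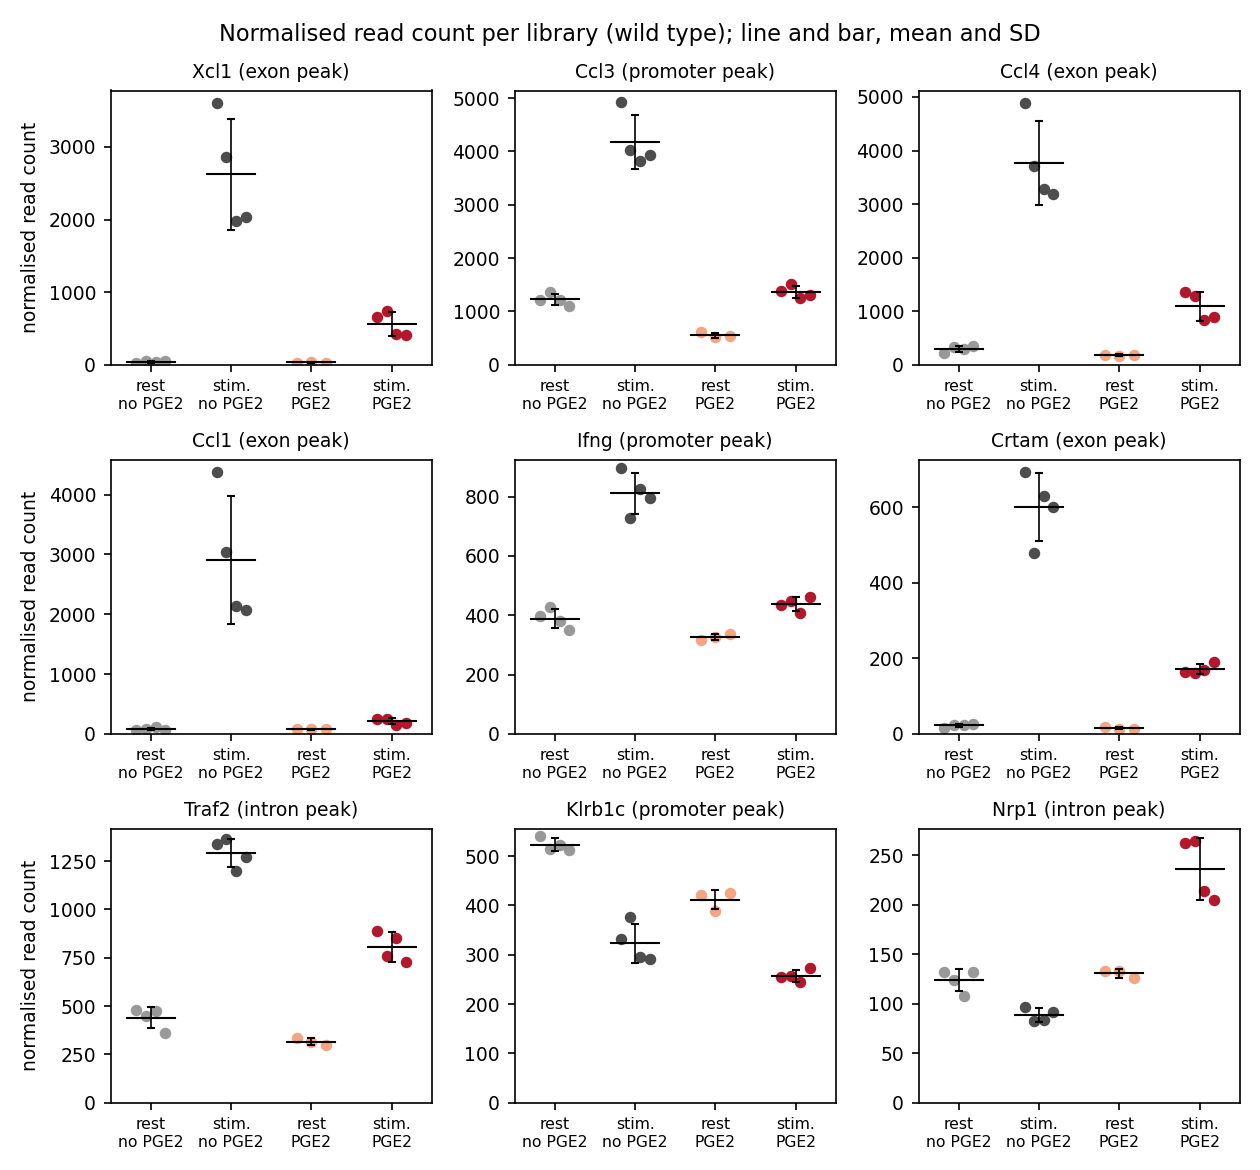
Normalised read count of 9 peaks in each wild-type library, by group; each dot is a library, the line is the group mean and the bar its SD (n = 4, or 3 for resting cells with PGE2). Stimulated libraries with PGE2 lie above their resting libraries for Xcl1, Ccl3, Ccl4, Ccl1, Ifng, Crtam, Traf2 and Nrp1 and below them for Klrb1c.

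Large rises were also seen at genes of lymphocyte activation and signal control. Crtam encodes an activation-induced adhesion receptor, and its exon peak (chr9:40980872-40982298) read 163.0, 161.8, 168.1 and 190.7 with stimulation and 17.74, 13.71 and 13.29 at rest. The stimulated libraries were close together and far above rest, with a log2 change of 3.44 ± 0.20 (limma, adjusted p = 2.314e-15), and the difference from the change without PGE2 was -1.27 (interaction adjusted p = 0.0005418, limma). Rgs1 and Rgs16 encode regulators that shorten G-protein signalling. An intergenic Rgs1 peak rose from 7.202 to 92.49 (3.52) and Rgs16 in an exon from 55.09 to 376.7 (2.76). The 12 largest rises, Crtam among them, were taken only from peaks whose stimulated and resting libraries did not overlap. The other peaks among these 12 lay near Cwc27 (3.48), Gm8817 (3.33), Eea1 (3.31), Nedd9 (3.12), Pvt1 (3.09), Cd5l (3.01), Fars2 (2.97) and 4930469K13Rik (2.94). Hivep3, a zinc finger factor of NF-κB-like sites, rose in an intron from 61.46 ± 13.56 (SD, n = 3) to 504.8 ± 51.92 (SD, n = 4), a change of 3.03 (limma, adjusted p = 1.32e-16).

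Of 217 peaks of genes of ITAM signalling, 38 rose (17.5%, against 12.7% of all peaks) and 8 fell (3.69%, against 3.8%; without PGE2 81 and 68). Their median of 0.01 was -0.06 with centred libraries and -0.01 without stimulated replicate 1, and the falls were 3 without stimulated replicate 3 or resting replicate 4. An intronic peak of Zap70, the kinase that docks on ITAM motifs, rose from 28.0 ± 1.338 (SD, n = 3) to 166.6 ± 28.68 (SD, n = 4), or by 2.52 ± 0.17 (limma, adjusted p = 7.858e-14).

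Of 108 peaks near genes of the NFAT, EGR and NR4A list 39 rose (36.1%, against 12.7% of all peaks) and none fell (median 0.18). Without PGE2 57 rose and 17 fell (median 0.46). The promoter peak of Nfat5, the member of the family known for osmotic stress (chr8:107290923-107291796) rose from 116.3 ± 15.77 (SD, n = 3) to 529.8 ± 41.96 (SD, n = 4), a log2 change of 2.18 ± 0.16 (limma, adjusted p = 9.301e-13). Intergenic peaks of the activation-induced nuclear receptor gene Nr4a1 and of Egr2, a zinc finger gene induced by lymphocyte activation, rose by 2.34 and from 11.34 to 48.25. Tox, a nuclear factor of chronically stimulated lymphocytes, rose by 2.08 at an intergenic peak, and Rcan1, a calcineurin inhibitor and NFAT target, by 0.89 in an intron. At Nr4a1 4 of 6 peaks rose (1 of these calls was lost without stimulated replicate 2, among other settings), at Egr2 2 of 5 and at Egr1 1 of 4.

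Of 92 peaks near NF-κB genes 39 rose (42.4%, against 12.7% of all peaks) and none fell (median 0.28). Without PGE2 70 rose and 6 fell (median 0.92). With libraries centred on their medians 27 rose. Intronic peaks of the subunit genes Nfkb1 and Rel rose from 22.81 to 114.5 (2.30) and from 28.0 to 100.4 (1.82). An intergenic peak of Tnfaip3, which encodes the inhibitor A20, rose from 46.29 ± 10.93 (SD, n = 3) to 188.2 ± 29.99 (SD, n = 4). The change was 2.02, and its difference from the change without PGE2 was -2.91 (interaction, limma adjusted p = 9.635e-08). Traf1, an adaptor of TNF receptors, rose by 0.91 in an exon and the activation marker Cd83 by 2.15 at an intergenic peak.

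Of 101 peaks of AP-1 and BATF genes 30 rose (29.7%, against 12.7% of all peaks) and 3 fell (2.97%, against 3.8%). The median was 0.16, and without PGE2 54 rose and 9 fell. The promoter peaks of Fosl2 and Batf3, which encode AP-1 family subunits, rose by 0.79 (530.5 to 913.3) and 1.07 (188.9 to 405.4), and an intron of the stress-induced factor Atf3 by 1.00. Bach2 encodes a repressor that competes for AP-1 sites. An intronic Bach2 peak rose by 2.17 ± 0.18 (38.33 to 174.9; limma, adjusted p = 2.693e-11), while another fell by 0.38 (313.9 to 242.1). The promoter peak of Dusp2, which encodes a phosphatase that switches off MAP kinases, rose from 605.7 ± 29.86 (SD, n = 3) to 1337.1 ± 112.1 (SD, n = 4), or by 1.14 ± 0.09 (limma, adjusted p = 8.308e-12).

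Co-stimulatory genes of the TNF family rose at 37 of 104 peaks (35.6%, against 12.7% of all peaks) and fell at 1. The median was 0.30, and without PGE2 64 rose and 19 fell. Tnfrsf9 encodes 4-1BB, and its exon peak (chr4:150944646-150947517) read 325.1, 265.5, 298.6 and 245.8 with stimulation and 45.92, 63.97 and 39.88 at rest. The groups did not overlap, the log2 change was 2.50 ± 0.17 (limma, adjusted p = 1.45e-13), and all 5 Tnfrsf9 peaks rose. The promoter peak of the co-stimulatory receptor gene Cd27 rose by 1.87 (54.58 to 202.4), and an intergenic peak of Tnfsf14 by 2.27.

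Among inhibitory receptors and adenosine genes 20 of 69 peaks rose (29.0%, against 12.7% of all peaks) and 1 fell (median 0.17). Only 13 rose without stimulated replicate 2 or resting replicate 3. The promoter peak of Pdcd1, which encodes PD-1, rose from 20.62 ± 6.676 (SD, n = 3) to 77.31 ± 13.62 (SD, n = 4), a change of 1.88 ± 0.26 (limma, adjusted p = 7.924e-07). The inhibitory ligand gene Pdcd1lg2 rose by 0.96 in an exon, the adhesion receptor gene Cd96 by 1.54, and an intron of Entpd1, which encodes the ATP-degrading enzyme CD39, by 1.23.

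IL-2, IL-15, STAT5 and SOCS genes rose at 36 of 150 peaks (24.0%, against 12.7% of all peaks) and fell at 2. Their median was 0.07, which turns negative with libraries centred on their medians. The promoter peak of Il2ra, printed above, read 195.8, 156.2, 161.0 and 217.8 with stimulation and 116.9, 113.3 and 103.7 at rest. The groups did not overlap, and the change of 0.70 ± 0.14 (limma, adjusted p = 0.0003072) differed from that without PGE2 by -1.11 (interaction). All 5 peaks of Cish, a feedback inhibitor of cytokine signalling, rose, 1 of them not called without resting replicate 3, its promoter by 0.495 (416.4 to 585.1) with PGE2 and by 1.64 without it. An intronic Stat3 peak (chr11:100933480-100934628) was already open at rest with PGE2. It read 1496.2, 1340.9, 1160.7 and 1029.1 with stimulation and 634.6, 690.9 and 635.4 at rest, with no overlap. It rose by 0.93 ± 0.13 (limma, adjusted p = 1.027e-06) from 653.6 ± 32.29 (SD, n = 3), while without PGE2 it rose by 3.08 from a mean of 97.0 to 831.4, so that the higher of the stimulated levels was the one with PGE2. The Il2rg promoter peak, for the common gamma chain, rose by 0.78.

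Cytotoxic granule genes rose at 19 of 71 peaks (26.8%, against 12.7% of all peaks) and fell at none. The median was 0.14, and without PGE2 38 rose and 12 fell. The perforin gene Prf1 rose at 1 of 5 peaks, in an exon (51.47 to 110.3). Its promoter peak read 1203.4 ± 46.31 (SD, n = 4) against 1117.2 ± 107.5 (SD, n = 3) and was not called (0.11, limma adjusted p = 0.3824), whereas without PGE2 it rose by 0.86, a difference that passed (-0.75, interaction adjusted p = 2.294e-06, limma). Serpinb9 and Serpinb6b belong to the family of protease inhibitors that shield cells from granzymes, and rose by 1.28 in an exon and by 1.39 at an intergenic peak. Both have close copies, so their assignment is uncertain.

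NK receptor genes were the only pathway list with more falls than rises. Of 132 peaks 14 rose (10.6%, against 12.7% of all peaks) and 16 fell (12.1%, against 3.8%). The median was -0.05, or 0.0042 without resting replicate 2. Without PGE2 25 rose and 67 fell (median -0.32). With PGE2 the falls were only 3 without resting replicate 4, 6 without resting replicate 2 and 9 without stimulated replicate 4. The rises were 7 without resting replicate 3. Klrb1c encodes the stimulated receptor, and its promoter peak (chr6:128787996-128789061) read 254.5, 257.7, 244.6 and 273.9 with stimulation and 420.6, 389.3 and 425.4 at rest. Every stimulated library was below every resting one, a log2 change of -0.67 ± 0.13 (limma, adjusted p = 0.0002451). Without PGE2 it fell by 0.70, from 522.7 to 323.5, and the 95% interval of the difference ran from -0.34 to 0.39. At 2 intergenic Klrb1c peaks the fall was smaller with PGE2: one went from 541.2 to 372.5 with PGE2 and from 382.0 to 173.8 without it (interaction 0.61, limma adjusted p = 0.02229), and the other fell by 0.33 and by 0.94 (interaction 0.61, limma adjusted p = 0.00295). The call of that second fall was also lost without resting replicate 4 and without stimulated replicate 1 or 4. At Klrb1c 5 of 7 peaks fell, and 3 of those calls were lost without resting replicate 2. Within the same list the Klrc2 intron and the Klri2 promoter, of the NKG2 and killer lectin-like families, rose by 2.10 ± 0.14 and 1.59 ± 0.14 (limma, adjusted p = 1.034e-13 and 2.984e-11). These families hold similar copies.

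NK transcription factor genes rose at 58 of 301 peaks (19.3%, against 12.7% of all peaks) and fell at 8 (2.7%, against 3.8%). Without PGE2 117 rose and 93 fell. With PGE2 the falls were 4 without stimulated replicate 2, stimulated replicate 3 or resting replicate 3 and 1 without resting replicate 4. Introns of Ikzf1 and Runx1, lymphoid transcription factor genes, rose by 1.71 and 1.25. At Tbx21, which encodes T-bet, 5 of 10 peaks rose, the leading one by 0.85 (218.5 to 393.8). None of the 3 Eomes peaks was called, and the promoter read 1574.3 ± 147.9 (SD, n = 4) against 1538.7 ± 100.7 (SD, n = 3).

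Of 219 peaks of cyclic AMP and CREB target genes, the pathway that PGE2 itself acts through, 43 rose (19.6%, against 12.7% of all peaks) and 7 fell (median 0.04, which turns negative with centred libraries), and the falls were 4 without resting replicate 4. No peak of Ptger4 (6), Crem (2) or Pde4d (23) was called. The Ptger2 promoter peak read 627.3, 637.0, 642.0 and 609.4 with stimulation and 604.3, 601.4 and 608.9 at rest, a change of 0.06 that was not called (limma, adjusted p = 0.8001). The lowest stimulated library lay just above the highest resting one. Without PGE2 the same peak rose from 629.6 to 1028.4, and the difference of -0.65 passed (interaction adjusted p = 0.002018, limma). In the knockout it read 104 at rest and 204 with stimulation.

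In the remaining lists, TGF-β and tissue residency genes rose at 32 of 121 peaks (26.4%) and fell at 1. An intergenic Smad3 peak was up by 1.65 and one of the integrin gene Itgav by 2.16. Migration genes rose at 31 (22.0%) and fell at 5 (3.5%) of 141. Glycolysis and mTOR genes rose at 14 (14.6%) and fell at 2 (2.1%) of 96, with an intron of the glycolysis activator Pfkfb3 up by 1.24. ILC2 and ILC3 markers rose at 11 (15.5%) and fell at 3 (4.2%) of 71. The shares of the glycolysis and ILC lists were near the 12.7% and 3.8% of all peaks. Interferon-stimulated genes rose at 3 of 34 peaks (Isg20, Oas3 and Rsad2) and housekeeping genes at 4 of 44, shares near or under the 12.7% of all peaks. The Oas3 and Rsad2 calls were lost without resting replicate 3, and the Rsad2 call in other settings too. Of the housekeeping rises 3 were Ywhaz peaks, with 1 Ywhaz peak lower, and 1 of the Ywhaz rises was lost without resting replicate 3. The 17 falls in lists with 5 or fewer lay, among others, near Csf2, Il10, Bach2, Batf, Jun, Cd28, Ctla4, Il18r1, Jak1, Smad3, Ccr2, Itga2, Itgb2, Srebf1 and Tsc1. Of these falls 13 lost the call when some single library was left out. The lists were chosen with earlier results of these data known, so their counts are descriptions.

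**Figure D3:**
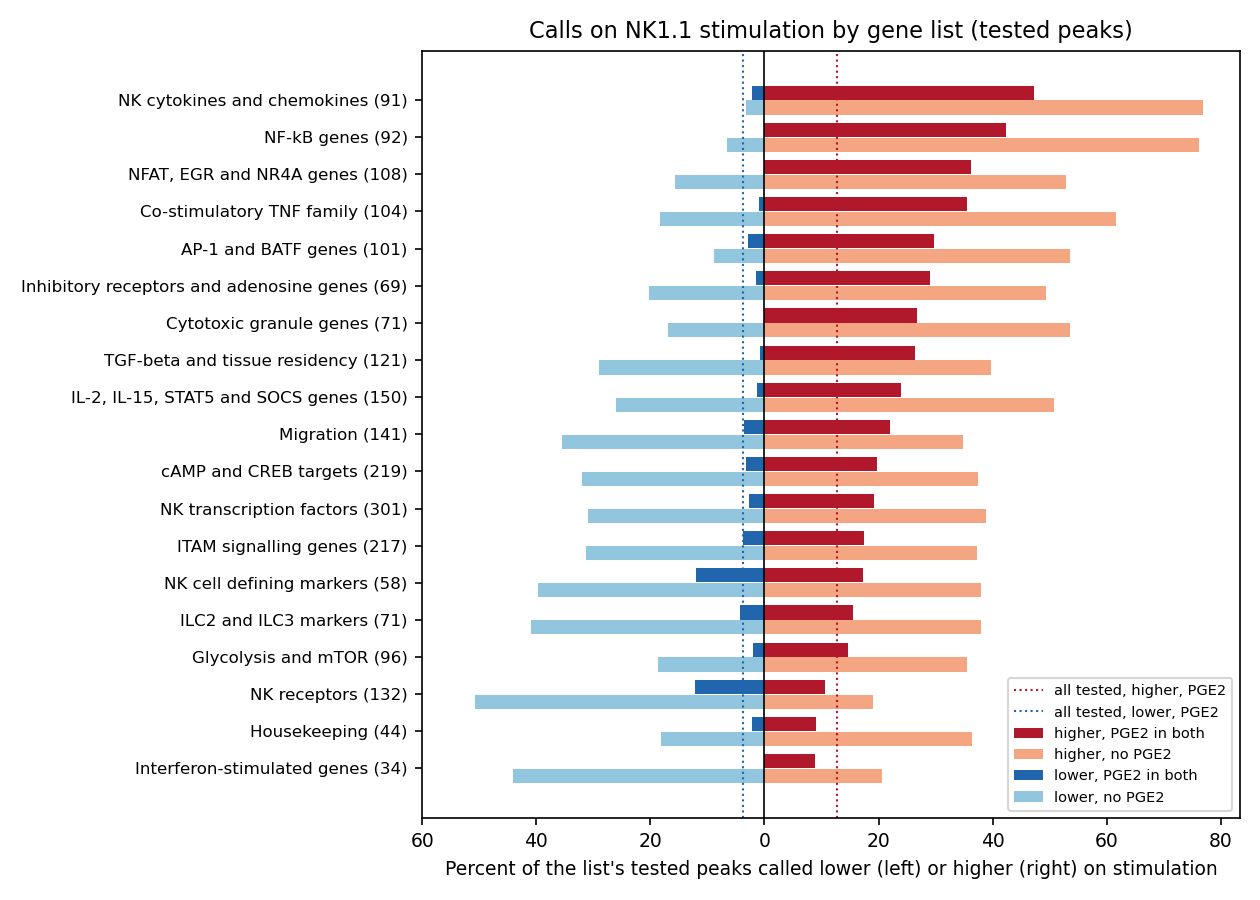
Percent of each list's tested peaks called higher (right) or lower (left) on stimulation with PGE2 in both groups (dark) and without PGE2 (light); the number of tested peaks stands in brackets and dotted lines mark all tested peaks with PGE2. NK cytokines and chemokines (43 of 91 higher) and NF-κB genes (39 of 92) lead, and NK receptors have more falls (16) than rises (14) with PGE2.

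Of the 12 largest falls 8 kept their call in every alternative that tested them (6 of these were not tested with a mean of at least 100), among them those near Nrcam, Sik3, Supt20, Gm20388, Asb5, Socs6 and Gm14164, and those near Eef1akmt1, Ctnnd2, Trat1 and Gm27217 did not. An intronic Gm14164 peak (chr2:152359715-152360995) read 162.0, 139.4, 149.8 and 186.9 with stimulation and 276.6, 350.0 and 330.6 at rest. The limma adjusted p was 1.292e-06, and a lack of overlap between the libraries was a condition for naming the 12 falls. Sik3, a salt-inducible kinase gene, fell in one intronic peak by 1.22 (89.91 to 37.71) and rose in another by 2.54 (21.92 to 131.6). The other falls were -1.37 for Nrcam, -1.16 for Supt20, -1.13 for Gm20388, -1.03 for Asb5 and -1.02 for Socs6, and Gm14164 fell from 319.1 to 159.6.

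Opening was mostly distal. Promoters made up 31.3% of tested peaks but 9.85% of those opened, introns 33.0% and 46.0%, intergenic sites 27.2% and 35.7%, and exons 8.55% and 8.43%. Of 12048 promoter peaks 480 rose and 591 fell, and of 12699 intronic peaks 2241 rose and 385 fell. Promoters were 40.3% of the closed peaks, a share that moved with the libraries used: it was 19.8% without resting replicate 3, 56.6% without resting replicate 2 and 57.6% without resting replicate 4. Opened peaks started low, at a median resting level of 93.0 against 469.1 for closed peaks and 161.6 for all tested peaks, and their median widths were 995, 1294 and 1067 bp. Stimulation without PGE2 also opened promoters less often: 19.5% of promoter peaks rose there, against 34.2% of intronic and 28.9% of all peaks.

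To ask how much of the response PGE2 left without choosing sites on the wild-type libraries, peaks were grouped by their change in the knockout given PGE2. There 21128 peaks were called (54.8%), 10682 higher (27.7%) and 10446 lower (27.1%). At the 10682 opened peaks the wild-type median change was 0.40 with PGE2 and 1.01 without it, 43.2% were called higher with PGE2 and 91.4% without it, and the effect was called smaller with PGE2 at 50.2%. At the 10446 closed peaks the medians were -0.17 and -0.55, and 11.4% and 82.2% were called lower. In each size class of opening the wild-type median was smaller with PGE2: peaks that rose by over 2 in the knockout (1916) had medians of 1.26 with PGE2 and 2.73 without it, those that rose by 1 to 2 (3154) 0.61 and 1.504, those that rose by 0.5 to 1 (3238) 0.30 and 0.75, and those below (2374) 0.13 and 0.35. Opened promoter peaks (2029) were called higher in 22.6% with PGE2 and 87.7% without it, and opened introns (4294) in 49.5% and 92.9%. The direct test of genotype called 7804 peaks (20.3%). The signed difference, wild type minus knockout, was negative at 4557 (11.8%) and positive at 3247 (8.43%), where a positive one can be a smaller fall. Receptor loss and Cre cannot be told apart in this contrast.

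**Figure D4:**
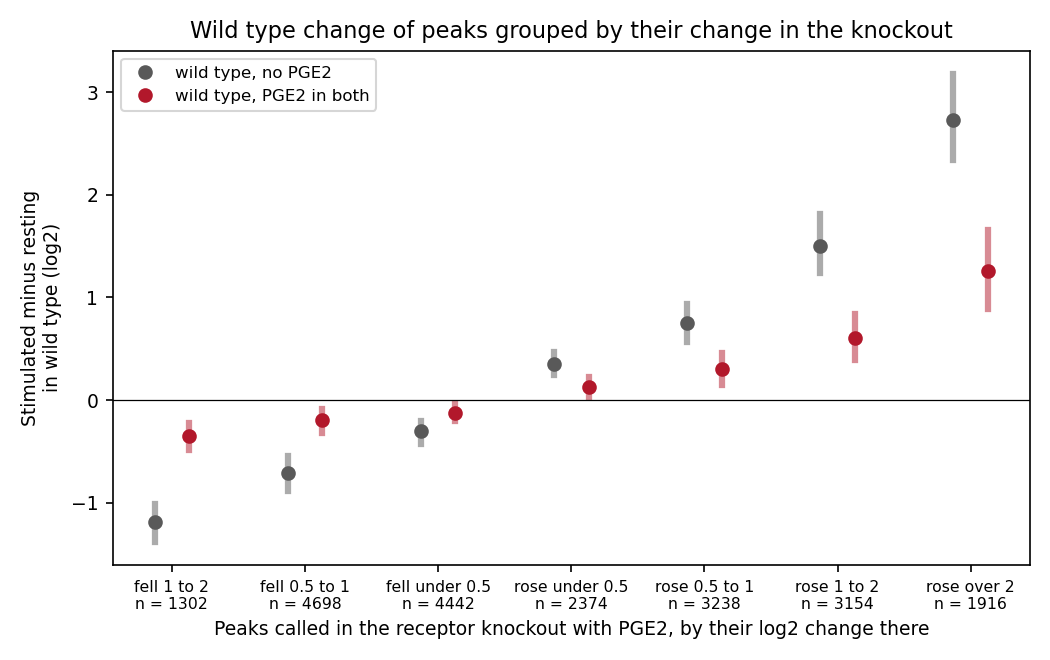
Log2 change on stimulation in wild-type cells, without PGE2 (grey) and with PGE2 in both groups (red), for peaks grouped by their called change in the knockout given PGE2; points are medians over peaks, bars the range between the quartiles and n the number of peaks. With PGE2 the medians lie nearer to 0 in every group, for example 1.26 against 2.73 in peaks that rose by over 2.

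Stimulated levels differed with PGE2, and resting levels lay apart, though at rest the test could not reach a p under 0.05. Over the 10682 peaks opened in the knockout the mean log2 level was 6.51 ± 0.056 (SD, n = 4) in resting wild-type libraries without PGE2 and 6.76 ± 0.0095 (SD, n = 3) with it, a difference of 0.24 (exact two-sided permutation test, p = 0.0571, the smallest that 4 against 3 allows). Stimulated libraries averaged 7.78 ± 0.065 (SD, n = 4) without PGE2 and 7.30 ± 0.045 (SD, n = 4) with it, a difference of -0.48 (exact two-sided permutation test, p = 0.0286, the smallest that 4 against 4 allows). With same-numbered libraries taken as pairs, all 4 pairs were lower and p was 0.125 (exact sign flips, the smallest that 4 pairs allow). The gain on stimulation was thus 0.54 with PGE2 and 1.26 without it. Over the 10446 closed peaks the levels were 8.16 and 7.55 at rest and on stimulation without PGE2, and 8.10 and 7.91 with it. For the opened and the closed set the libraries of each pair of groups did not overlap. Over all tested peaks the level with PGE2 minus that without it was 0.066 at rest and -0.018 on stimulation. The resting difference of the closed set, -0.055, was no larger in size than that shift of all peaks.

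Some sites responded alike with and without PGE2. The 95% interval of the interaction lay within -0.5 and 0.5 at 435 of the opened peaks (8.92%, against 25.2% of all tested peaks). That bound is smaller than the changes of the peaks named next, but not than the median fall of the closed peaks. An intronic peak of Traf2 (chr2:25533724-25535165), an adaptor of TNF receptor signalling, read 887.8, 758.6, 849.9 and 727.2 with stimulation and 335.0, 312.6 and 300.4 at rest. The groups stood apart, the change was 1.34 ± 0.09 (limma, adjusted p = 4.965e-14) against 1.56 without PGE2, and the difference had an interval of -0.46 to 0.03. An intronic peak of Itgae, the CD103 integrin gene of tissue-resident cells, read 1153.2, 1127.8, 897.8 and 882.4 against 534.4, 540.1 and 502.5. It rose by 0.94 with and 0.82 without PGE2 (interval -0.15 to 0.37). Intronic Il18r1, for the IL-18 receptor, rose by 0.93 (interval -0.40 to 0.30), the Otop1 promoter by 1.32 (-0.48 to 0.05) and an intergenic Btrc peak by 1.19 (-0.36 to 0.36). The opposite extreme held Ccl1, Ubxn2a, Cass4 and Fam102a, whose interactions were -3.72, -3.20, -3.14 and -3.11.

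A small number of sites opened more with PGE2 than without it. Since the interaction uses the same PGE2 libraries as the call, these peaks are given as a description. They number 107, of which 77 were not called without PGE2, 25 closed without it and 5 opened in both, and 3 are promoters. The count was 62 without stimulated replicate 1 and 60 without resting replicate 3. An intronic peak of Nrp1 (chr8:128489101-128490190), which encodes the receptor neuropilin-1, read 262.5, 264.4, 214.0 and 204.7 with stimulation and 133.6, 133.4 and 125.8 at rest. All stimulated libraries lay above rest, with a change of 0.84 ± 0.16 (limma, adjusted p = 0.0001225), whereas without PGE2 it fell by 0.48 from 124.2 to 88.95 (interaction 1.31 ± 0.21, limma adjusted p = 1.85e-05). Intergenic peaks of Gm20750 and Mapre1 likewise rose by 0.65 and 0.67 with PGE2 and fell by 0.62 and 0.59 without it.

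An intronic peak of Fars2 (chr13:36392037-36393193), the mitochondrial phenylalanine tRNA ligase gene, read 138.2, 114.9, 74.39 and 75.71 with stimulation and 7.306, 13.71 and 15.07 at rest. It rose by 2.97 ± 0.33 (limma, adjusted p = 8.739e-09) with PGE2 and by 1.57 without it. The others that opened in both and more with PGE2 were Ski (0.64 and 0.23), a repressor of SMAD signalling, D030028A08Rik (1.04 and 0.53), Ldlrad4 (0.81 and 0.27) and Lrrfip1 (0.47 and 0.17). In the other direction 43 peaks closed with PGE2 and more than without it, 25 of them promoters, a count that was 7 without resting replicate 3, 23 without stimulated replicate 1, 119 without resting replicate 2 and 76 without resting replicate 4. Of these 43 only the Ikzf4 promoter (-0.47) and an intergenic Muc3 peak (-0.63) opened without PGE2. The Ikzf4 call was lost without stimulated replicate 1, 3 or 4 and without resting replicate 2, 3 or 4. It was also lost with a replicate block and with a pseudocount of 10. The Muc3 call was lost without stimulated replicate 2 or resting replicate 3.

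**Figure D5:**
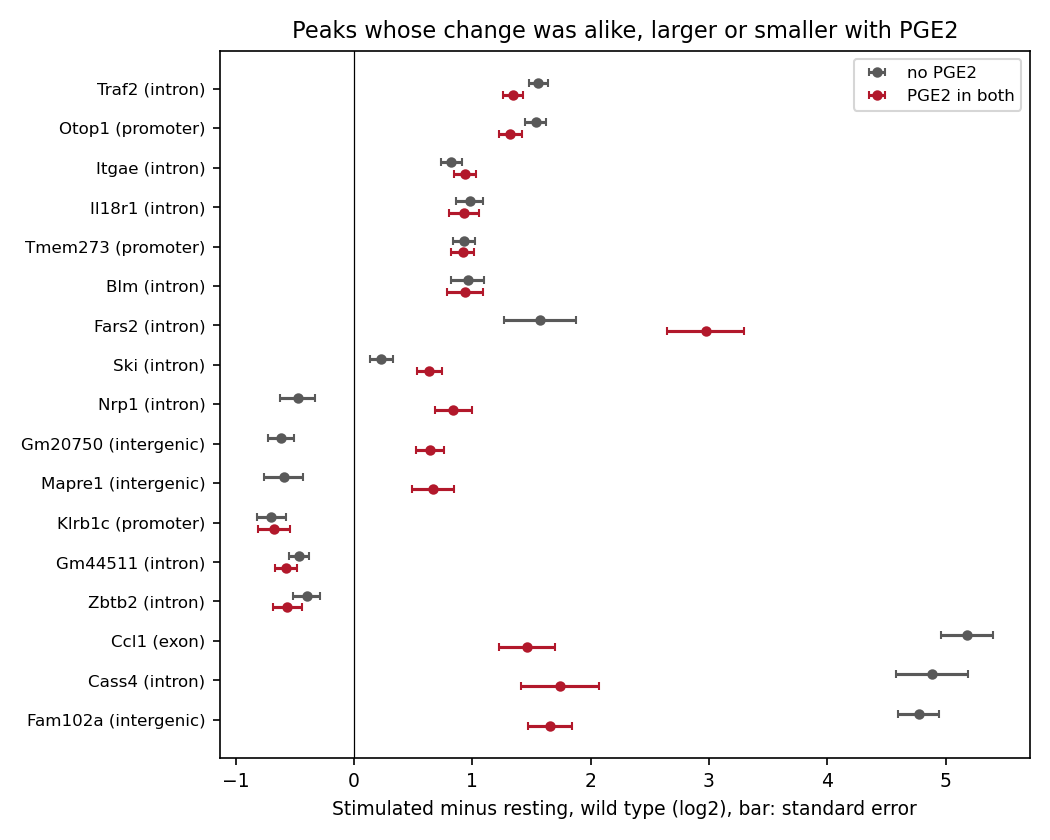
Log2 change on stimulation of 17 named peaks in wild-type cells without PGE2 (grey) and with PGE2 in both groups (red), with standard errors. Traf2, Itgae and the Klrb1c promoter peak changed by similar amounts, Fars2 rose more with PGE2 (2.97 against 1.57), Nrp1 rose with and fell without it, and Ccl1 rose by 1.46 against 5.18.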

How the data were processed

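ATAC-seq libraries of cultured splenic NK cells were compared, 4 stimulated and 3 resting wild-type libraries, all with PGE2. Per the submitters' processing notes, the authors used Trimmomatic 0.39, Bowtie2 2.4.1, MACS2 2.2.7.1 and DESeq2 with mm10; the version of DESeq2 and the treatment of duplicates and of the transposase offset are not given in the sources used here. Deposited values are signal per peak, reads scaled by each library's size factor, in which 1 read is worth 0.886 to 1.12 in the 7 libraries. Every value was a whole multiple of that step within 0.05. Peak class and gene are those of the deposited table, with coordinates in mm10, and 14755 of 14768 gene identifiers matched the GRCm38.p6 table that supplied promoter sequences.

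The main test was limma 3.58.1 (R 4.3.3) on log2(value + 1) with trend, over all 30 libraries and 8 group means, two-sided, without a replicate block, with Benjamini-Hochberg adjustment over the 38525 peaks with a mean of at least 10 (1 peak was left out). A fold change on this scale understates that of low peaks. The code was also run on simulated counts with few changed peaks and a single spread for all peaks. These settings differ from the data, so that run does not vouch for the calls. Calls are at an adjusted p under 0.05, and values with ± after a log2 change are standard errors. The members, the 23 gene lists and the rules were chosen with earlier results of these data known. Named were the 12 largest changes per direction, up to 4 genes per list by smallest p, every peak of 25 fixed genes, the 8 largest interactions per direction and the 8 largest changes per direction whose interaction interval lay within 0.5 of 0. Chosen with their values known were the AP-1 promoters, those changed more with PGE2 and lone members of a list's minor direction. Other pseudocounts, filters, centring, a block and leaving out each library were tried. Replicate numbers were checked as pairs by the correlation of deviations from group means. Same-numbered stimulated wild-type libraries with and without PGE2 gave 0.118 to 0.206, and other-numbered ones at most 0.0801. Between stimulated and resting knockout libraries same numbers gave 0.132 to 0.368. Other numbers there reached 0.188 (1 with 2) and 0.197 (3 with 4), so these values do not establish pairs. In the main comparison same numbers gave 0.0359 to 0.0437 and other numbers at most 0.0105. Between stimulated and resting wild-type libraries without PGE2 same numbers gave 0.0156 to 0.150, and other numbers reached 0.0553. Some genes are not reported here.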

Additional observations from a re-analysis of the deposited data

Results flagged for a closer look

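Among 230 groups of 4 stimulated libraries (1 for each called peak that is named), 7 had 1 library far from the other 3, where chance gives about 1 in 20. Replicate 1 was the high library in 6 of them. It read 546.8 at the Batf3 promoter (the other 3 libraries 346.8 to 367.9), 500.1 at the Csf2 promoter (433.9 to 435.1), 129.2 at an Ikzf3 intron (88.8 to 93.7), 327.1 at an Il1rl1 intron (287.9 to 292.3), 137.2 at an intergenic Itgav peak (108.2 to 112.1) and 136.2 at an intergenic Jun peak (109.4 to 111.6). Replicate 2 read 647.0 at an intergenic Ccl3 peak (609.4 to 615.4).

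The effect of stimulation differed with and without PGE2 in wild-type cells at 9757 peaks, and between wild type and knockout with PGE2 at 7804 peaks (limma, tests of the interactions).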

How the results depend on the processing

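The number of peaks called with PGE2 (6339) was 4593 to 5821 without 1 library, 6528 with a pseudocount of 10, 4703 with a mean of at least 100, 6715 with centred libraries and 7581 with only the groups compared. Rises numbered 3890 to 4653 without 1 library. Falls numbered 703 to 1256 without 1 library, 2614 with centred libraries and 2463 with a replicate block. Without 1 library the other calls numbered 20184 to 21217 for stimulation without PGE2, 7888 to 9983 for its interaction with PGE2, 19155 to 20807 in the knockout and 5965 to 8509 for the genotype interaction. The replicate block called 7967 peaks, 5504 of them higher. It called 11014 peaks for the interaction with PGE2, 22239 in the knockout and 9036 for the genotype interaction, all within 1.5 times. Same-numbered libraries of the main comparison deviated together only weakly (correlations 0.0359 to 0.0437), though more than every other-numbered pair (-0.0366 to 0.0105). The main fit did not take the numbers as pairs, and whether they mark pairs is not in the labels. The sign-flip test of pairs in the report (-0.48 for the peaks opened and 0.37 for those closed in the knockout, exact p = 0.125 for both) was chosen after seeing the data. Of 230 named peaks called, 173 kept the call in every alternative that tested them and 57 lost it in at least 1 (45 of the 230 were not tested with a mean of at least 100). None of the 230 reversed in the 13 alternatives, and 26 times a named peak that was not called became so. The planned edgeR and DESeq2 tests were not run, because the table was kept as scaled signal. Depth limits peaks of few reads, where 1 read is about 1 unit of the value.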
